A study of Zea mays with 6 samples.

Results

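The genes described here are pep1, pdk1, ppt1 and me3 of maize, which encode 3 enzymes of C4 photosynthesis and a plastid transporter that serves it. Members were the probe sets paired with exactly 1 gene whose symbol or RefSeq synonym, letter case included, was one of these names. That gave 8 probe sets and 4 genes of the 1108 genes named on the array. The pep1 gene had 1 probe set, pdk1 had 5, ppt1 had 1 and me3 had 1. The spelling PDK1 in capitals also belongs to pdlk1 (NCBI gene 541677), whose symbol is that of a pyruvate dehydrogenase kinase, and its 2 probe sets were not taken as pdk1.

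The arrays compared the chlorophyll-free distal part of a leaf (CL) with its chlorophyll-containing proximal part (CC), which served as the control. Both came from leaf 3 of the maize inbred line A661 and were cut as the 2 cm nearest the border between them, with 3 biological replicates a section. All plants had spent 3 weeks at 15 °C and then 1 week at 25 °C. Both sections thus came from plants that had the cold period, and no leaf grown at 25 °C throughout was analysed here. Absence of chlorophyll, distal position and the temperature at which a section grew cannot be told apart in this design. Array medians were 6.31 to 6.36 in CL and 6.29 to 6.30 in CC, and arrays of one section correlated at 0.989 to 0.995 over 17555 probe sets. The distributions differed by section at both ends. The lower quartile was 3.95 to 3.97 in CL, against 4.04 to 4.15 in CC. The array maximum was 13.66 to 13.74 in CL, against 13.50 to 13.56 in CC.

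In C4 plants such as maize, carbon dioxide is first fixed in mesophyll cells by phosphoenolpyruvate carboxylase, the resulting acid is reduced to malate, and malate is decarboxylated in the chloroplasts of the bundle sheath, where rubisco refixes the released gas. Pyruvate returns to mesophyll chloroplasts, where pyruvate phosphate dikinase turns it back into phosphoenolpyruvate, which leaves through the plastid envelope in exchange for phosphate. The nuclear genes of this cycle are among the most strongly expressed of a mature maize leaf, and their transcripts respond to light.

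The transporter transcript was higher in the section without chlorophyll, and the enzymes' brightest probe sets were nearly level between the sections. The ppt1 value rose 1.68-fold in CL. The brightest probe set of pep1, pdk1 and me3 differed by 1.02-fold to 1.04-fold, none of them past the test. One weaker probe set of pdk1 rose 1.22-fold. Of the 8 probe sets, 2 rose in CL, 0 fell and 6 did not pass a limma adjusted p of 0.05 over all probe sets. The 2 rises are 25% of the 8, against 31.1% of all 17555 probe sets called in either direction and 15.9% called higher in CL. The share is near that background. At an unadjusted p under 0.05, for which the share over all probe sets is not given here, the count of falls was also 0. With 1 probe set a gene and adjustment over genes, ppt1 rose and the other members did not pass. By the same count 218 of the 1108 named genes rose and 247 fell. In 5 of the 8 (62.5%) all CL arrays lay on one side of all CC arrays, against 49.6% of all probe sets. Apart from ppt1, these 5 were all probe sets of pdk1, so that share counts 1 gene several times. The median log2 change of the 8, of which 5 were of pdk1, was 0.05, and that of all probe sets was -0.05. Values are log2 RMA expression values throughout, changes are CL minus CC, SE is the moderated standard error of limma and intervals are 95% intervals from the same fit.

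**Figure D1:**
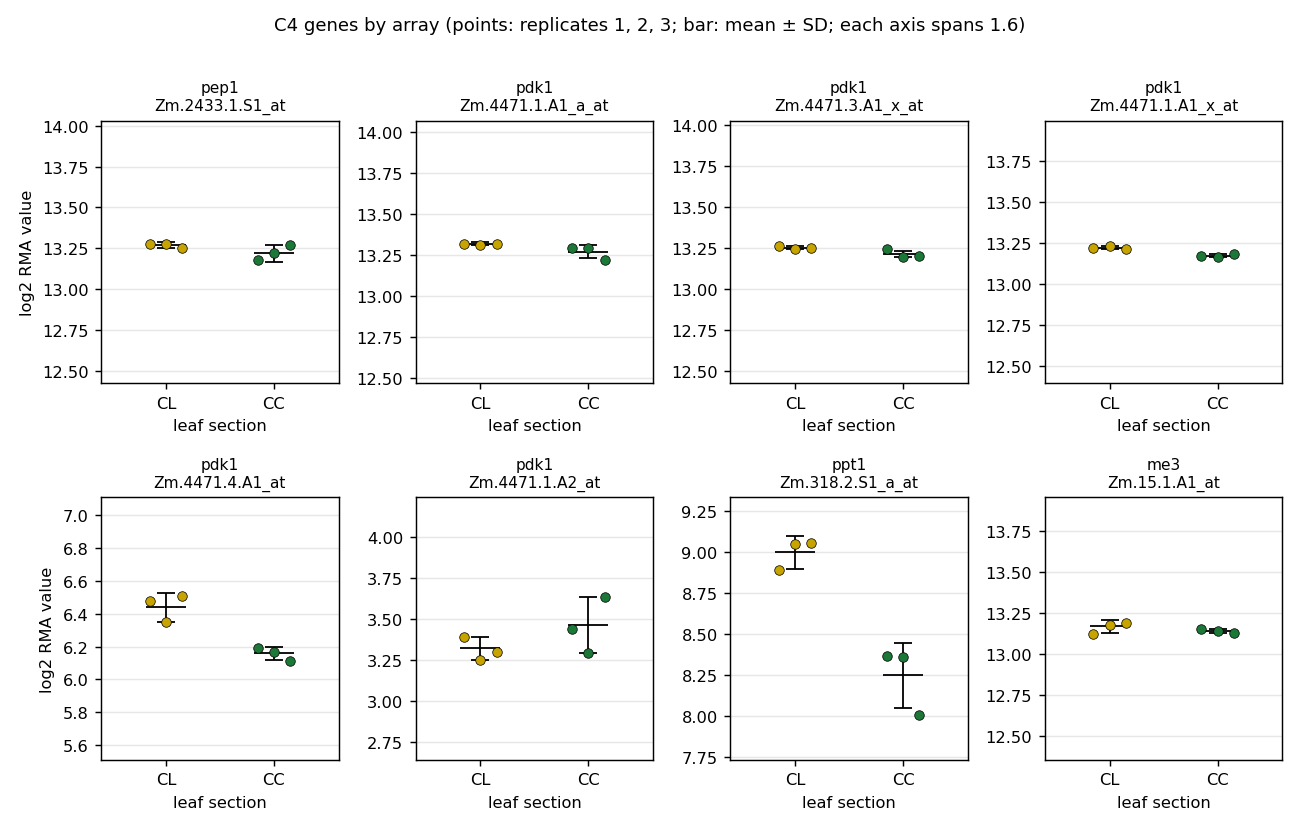
Log2 RMA values (vertical axes, each spanning 1.6 units) of the 8 probe sets in the CL and CC sections, with a point for each of the 3 replicates and a bar for mean ± SD. The ppt1 points of CL, at 8.89 to 9.06, lie clear of those of CC, at 8.01 to 8.37, while pep1 and me3 overlap between sections.

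The mesophyll enzyme that opens the cycle is the phosphoenolpyruvate carboxylase encoded by pep1 (NCBI gene 542372, probe set Zm.2433.1.S1_at), whose RefSeq synonyms include PEPC1 and PPC1. Its values were 13.28, 13.28 and 13.25 on the CL arrays, against 13.18, 13.22 and 13.27 on the CC arrays. CC replicates 1 and 2 were the lowest, CC replicate 3 lay among the CL arrays, and the sections overlapped. The log2 change was 0.05 (SE 0.08, interval -0.13 to 0.23; limma adjusted p = 0.660). The fold interval therefore ran from 0.912 to 1.17, on the scale of the values read. The values lay close to 13.74, the highest value on any array. Whether values this near the top follow transcript amount, up or down, was not tested.

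Pyruvate phosphate dikinase, the mesophyll enzyme that regenerates phosphoenolpyruvate, is encoded by pdk1 (NCBI gene 542759). Its RefSeq synonyms C4ppdkZm1 and cyppdkZm1 name the plastid and the cytosolic form, which are made from separate start sites of one gene. Probe sets near the end of the transcript cannot separate these forms. The brightest probe set, Zm.4471.1.A1_a_at, read 13.32, 13.31 and 13.32 in CL, against 13.29, 13.29 and 13.22 in CC. Every CL array lay above every CC array, by a margin of hundredths. The log2 change was 0.05 (SE 0.08, interval -0.13 to 0.23; limma adjusted p = 0.626).

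A pair of further bright probe sets of pdk1 behaved in the same way. Zm.4471.3.A1_x_at averaged 13.25 ± 0.01 in CL, against 13.21 ± 0.02 in CC (SD, n = 3 per section), and Zm.4471.1.A1_x_at averaged 13.22 ± 0.01 in CL, against 13.17 ± 0.01 in CC (SD, n = 3 per section). Their log2 changes were 0.04 (interval -0.14 to 0.21) and 0.05 (interval -0.12 to 0.22), with limma adjusted p of 0.716 and 0.619. The sections' values did not overlap in either. The moderated SE was 0.07 for each, well above these SDs, since limma shares spread across all probe sets. The adjusted p therefore does not measure the replicate spread of these probe sets alone. The suffix _x_at marks probe sets with probes that can also read similar sequences, so transcripts of a near-identical dikinase gene may contribute to them.

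The remaining probe sets of pdk1 differed from the bright ones and from each other. Zm.4471.4.A1_at read 6.48, 6.35 and 6.51 in CL, against 6.19, 6.17 and 6.11 in CC, with every CL array above every CC array. It rose by a log2 change of 0.29 (SE 0.08, interval 0.09 to 0.49; limma adjusted p = 0.0398). The call was lost when any array but CL replicate 2 was left out, with adjusted p of 0.0605 to 0.142 and log2 changes of 0.26 to 0.31. Median centring and a further quantile normalization each gave a log2 change of 0.24 with an adjusted p of 0.0778. Zm.4471.1.A2_at read 3.39, 3.25 and 3.30 in CL, against 3.44, 3.29 and 3.63 in CC, and its log2 change of -0.14 (SE 0.11) had a limma adjusted p of 0.353. Its mean lay at the 15.8th percentile of all probe sets, the dim end of the arrays. The 5 probe sets paired with pdk1 thus gave 1 rise and 4 results that did not pass, and the mean of all 5 had a log2 change of 0.06.

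The transporter gene ppt1 (NCBI gene 100037776, probe set Zm.318.2.S1_a_at, synonym MZPPT1) encodes a phosphoenolpyruvate/phosphate translocator of the plastid envelope. In mesophyll chloroplasts such a translocator exports phosphoenolpyruvate for the carboxylase, and in other plastids it imports phosphoenolpyruvate for the shikimate pathway, the source of aromatic amino acids. Its values were 8.89, 9.05 and 9.06 on the CL arrays, against 8.37, 8.36 and 8.01 on the CC arrays. CC replicate 3 was the lowest of the 6, and no CC array reached the lowest CL array. The mean was 9.0 ± 0.10 in CL, against 8.25 ± 0.20 in CC (SD, n = 3 per section). The log2 change was 0.75 (SE 0.12, interval 0.46 to 1.04; limma adjusted p = 0.00645). On the linear scale the interval was 1.38-fold to 2.06-fold.

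The rise of ppt1 passed the test under all 16 alternatives run for it, with log2 changes of 0.63 to 0.81 and adjusted p of 0.000666 to 0.0428. A rise of this size was not rare on the arrays, since 1075 of 17555 probe sets (6.12%) rose by as much or more. The probe set lay at the 78.9th percentile of mean value, well below the top of the arrays.

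The bundle sheath enzyme is the NADP-malic enzyme encoded by me3 (NCBI gene 542233, probe set Zm.15.1.A1_at), which releases carbon dioxide from malate next to rubisco. Its values were 13.12, 13.18 and 13.19 in CL, against 13.15, 13.14 and 13.13 in CC. CL replicate 1 was the lowest array and the sections overlapped. The log2 change was 0.03 (SE 0.07, interval -0.15 to 0.21; limma adjusted p = 0.792), and the fold interval was 0.902 to 1.15.

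The enzyme genes with level values sat at the very top of the arrays. Among 17555 probe sets ordered by mean value, the brightest pdk1 probe set ranked 10, pep1 ranked 12 and me3 ranked 21, and 5 of the 8 probe sets had a mean of 13 or more. The highest value on any array was 13.74. Over the 6 arrays, pep1 ranged by 0.11 and me3 by 0.07, and 0.792% and 0.171% of all probe sets had a smaller range. Of the 33 probe sets with a mean of 13 or more, 2 rose and 5 fell, together 21.2%, with a median absolute log2 change of 0.10, against 0.25 over all probe sets. Their changes ran from -0.59 to 0.61. Of the 172 probe sets with a mean of 12 or more, 9 rose and 50 fell, with a median absolute log2 change of 0.23. The part of brightness in the level values of pep1, pdk1 and me3 was not tested.

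**Figure D2:**
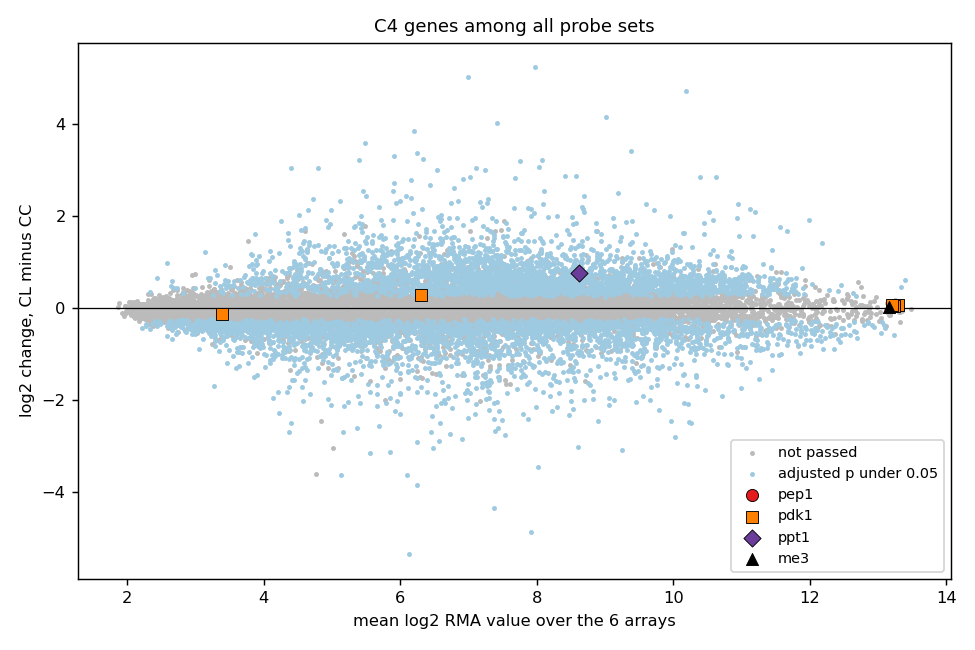
Log2 change, CL minus CC (vertical axis), against the mean log2 RMA value over the 6 arrays (horizontal axis) for all 17555 probe sets, with probe sets past an adjusted p of 0.05 in blue and the 4 genes as large symbols. The pep1 and me3 symbols and 3 of pdk1 lie above 13 and close to a change of 0, and ppt1 lies at mid range with a change of 0.75.

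The mesophyll genes were then set against the bundle sheath gene, and against each other, through differences of log2 values within each array. Such a difference compares changes and not amounts, since values of separate probe sets have no common scale. The ppt1 minus me3 difference was -4.23, -4.13 and -4.13 in CL, against -4.78, -4.77 and -5.11 in CC, so the ratio was higher on every CL array. It changed by 0.72 (SE 0.11, limma interval 0.45 to 1.0), which is 1.65-fold. The same comparison gave 0.70 (interval 0.38 to 1.03) for ppt1 minus pep1 and 0.70 (interval 0.44 to 0.96) for ppt1 minus pdk1. These 3 comparisons repeat the rise of ppt1, since the other genes ranged by only 0.07 to 0.11 on their brightest probe sets. The differences were fitted together with all single probe sets, whose spread enters the intervals. In an exact two-sided permutation test over arrays each of the 3 comparisons had p = 0.1, the smallest that 3 arrays against 3 can give, and 0.2 after Benjamini-Hochberg adjustment over the 6 pairs.

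The pairs without ppt1 stayed close. The pep1 minus me3 difference averaged 0.10 in CL and 0.09 in CC, a change of 0.02 (limma interval -0.17 to 0.21; exact permutation p = 0.7, adjusted 0.84). For pdk1 minus me3 the change was 0.02 (interval -0.16 to 0.20; exact permutation p = 0.6, adjusted 0.84), and for pep1 minus pdk1 it rounded to 0 (interval -0.20 to 0.19; exact permutation p = 0.9, adjusted 0.9). The mesophyll enzymes and the bundle sheath enzyme therefore showed no difference in change that these arrays could resolve, with changes beyond 0.21 outside the intervals. These probe sets had means of 13 or more, where the median absolute log2 change was 0.10, against 0.25 over all probe sets. The intervals are for changes in the values read, and how far these follow transcript amount was not tested. In bulk leaf tissue, fewer cells of a type and less RNA per cell cannot be told apart.

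Other genes of the pathway came from lists of symbols, matched in any letter case. The C4 cycle and transport list matched 7 genes with 8 probe sets, of which 1 rose, 2 fell and 5 did not pass, with a median log2 change of -0.04, against -0.05 over all probe sets. Both pyruvate dehydrogenase kinase genes on it, pdlk1 and pdlk2, are kinases of respiratory carbon use by their symbols and not C4 enzymes. Without them 5 genes with 5 probe sets were left, of which 0 rose and 1 fell (pdrp1), where 15.9% and 15.2% of all probe sets rose and fell by the same limma threshold. At an unadjusted p under 0.05 the counts of these 5 were the same, 0 and 1. The share over all probe sets at that unadjusted threshold is not given here.

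The fall was that of pdrp1 (NCBI gene 732785), which encodes by its symbol the regulatory protein that switches pyruvate phosphate dikinase off and on by phosphorylation. It read 12.08, 11.90 and 11.88 in CL, against 12.19, 12.28 and 12.24 in CC, and every CL array lay below every CC array. The log2 change was -0.28 (SE 0.09; limma adjusted p = 0.0495), at the edge of the threshold. The call was lost when any array but CL replicate 1 was left out, with adjusted p of 0.0668 to 0.165, and a further quantile normalization gave a log2 change of -0.17 and an adjusted p of 0.174.

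The kinase gene of the carboxylase, ppck1 (NCBI gene 606483), had the widest range over the 6 arrays among the listed genes, 2.22 log2 units. Phosphoenolpyruvate carboxylase kinase makes the carboxylase less sensitive to inhibition by malate, and its transcript changes over the day in many plants. Its values were 8.82, 8.10 and 7.57 in CL, against 6.69, 6.60 and 8.68 in CC. CC replicate 3 was the second highest of the 6 arrays, and the other CC arrays were the lowest. The log2 change of 0.84 (SE 0.59, interval -0.55 to 2.22) had a limma adjusted p of 0.307, and its size rested on single arrays. Without CC replicate 3 it was 1.51 with an adjusted p of 0.0325, and without CL replicate 1, CC replicate 1 or CC replicate 2 it was 0.51, 0.52 and 0.47, with none of these past the threshold.

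Among the other matches, mdh6 encodes the NADP-malate dehydrogenase that makes malate in mesophyll chloroplasts, and averaged 12.63 ± 0.06 in CL, against 12.69 ± 0.06 in CC (SD, n = 3 per section; log2 change -0.05, limma adjusted p = 0.657). The pep4 gene, a further carboxylase gene by its symbol, had a log2 change of -0.03 (SE 0.12), and me2, a malic enzyme gene by its symbol, one of -0.09 (SE 0.09). Neither passed. Both enolase genes, whose enzyme makes phosphoenolpyruvate in glycolysis, likewise did not pass on any of 4 probe sets. Their brightest probe sets had log2 changes of -0.02 (eno1) and -0.08 (eno2). The pyruvate dehydrogenase kinase gene pdlk1 rose by a log2 change of 0.56 on 1 of 2 probe sets (limma adjusted p = 0.0325) and pdlk2 fell to 11.61 ± 0.16 in CL, against 12.13 ± 0.05 in CC (SD, n = 3 per section; limma adjusted p = 0.0117). The pdlk1 call was lost without CL replicate 2 (adjusted p = 0.0836), CL replicate 3 (0.112), CC replicate 2 (0.101) or CC replicate 3 (0.0919).

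**Figure D3:**
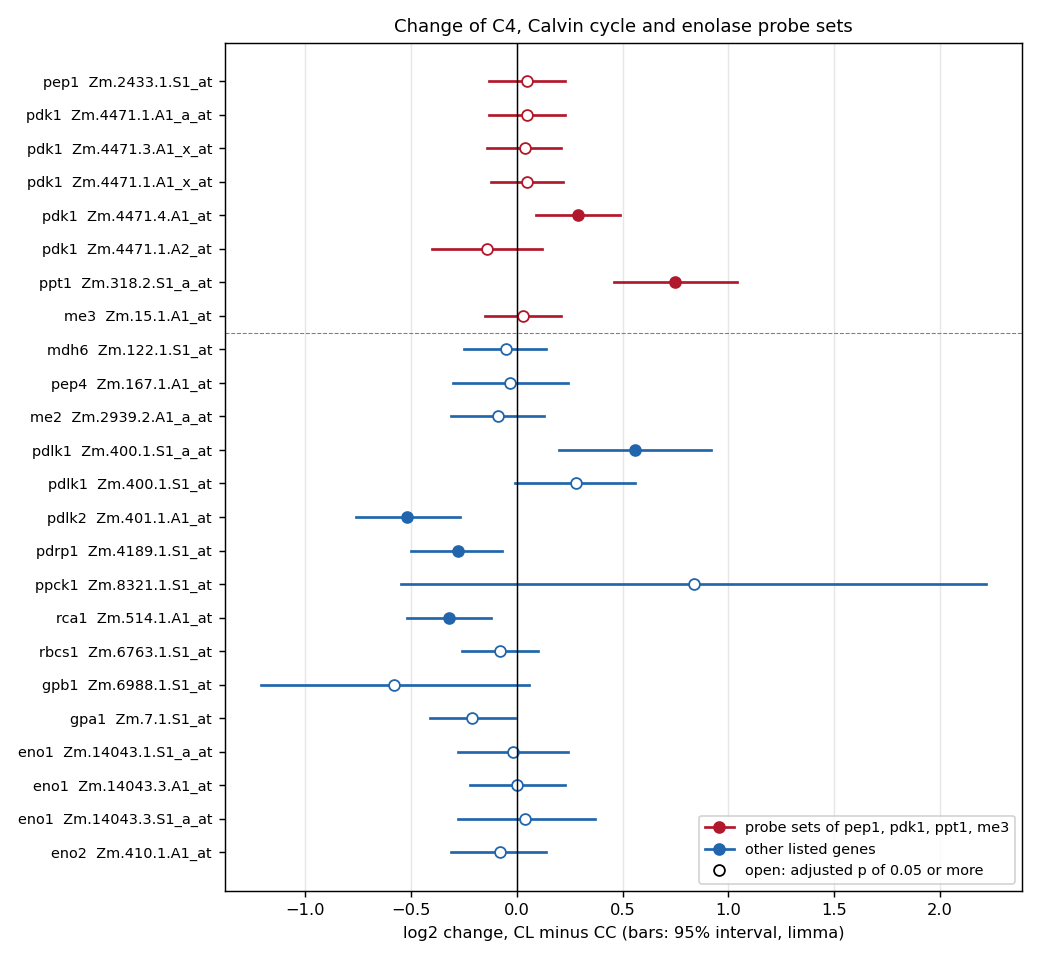
Log2 change, CL minus CC (horizontal axis), with 95% limma intervals for the 8 probe sets of the 4 genes (red) and for those of the listed genes (blue), filled where the adjusted p was under 0.05. The ppt1 interval, 0.46 to 1.04, lies farthest to the right of 0 among the red ones, and that of ppck1, -0.55 to 2.22, is the widest.

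The Calvin cycle, which takes up the gas that me3 releases, was covered by 4 genes with 4 probe sets, of which 0 rose and 1 fell at a limma adjusted p of 0.05 (0 and 2 at an unadjusted p under 0.05). Over all probe sets 15.9% rose and 15.2% fell at the adjusted threshold, so 1 fall among 4 is near the background. The share over all probe sets at the unadjusted threshold is not given here. The median log2 change was -0.26, against -0.05 over all probe sets. The bundle sheath genes rca1, for rubisco activase, and rbcs1, for the rubisco small subunit, averaged 11.88 ± 0.09 and 12.81 ± 0.02 in CL, against 12.20 ± 0.03 and 12.90 ± 0.05 in CC (SD, n = 3 per section), with limma adjusted p of 0.0294 and 0.430. The rca1 call was lost when any array but CL replicate 1 was left out, with adjusted p of 0.0597 to 0.0814. The plastid glyceraldehyde-3-phosphate dehydrogenase genes gpa1 and gpb1 had log2 changes of -0.21 (SE 0.09) and -0.58 (SE 0.27). Neither passed, with limma adjusted p of 0.102 and 0.144. For gpa1 every CL array, at 12.73 to 12.82, lay below every CC array, at 12.88 to 13.05. It passed with an intensity trend (limma adjusted p = 0.047) and with array weights (0.0127), and under no other setting. With array weights gpb1 passed too (0.00978). The gpb1 values of 12.51, 12.03 and 11.73 in CL overlapped those of 12.20, 12.70 and 13.08 in CC, and the change rested on single arrays. Without CC replicate 1 the log2 change was -0.81 with an adjusted p of 0.0495, without CC replicate 3 it was -0.36 (0.353) and without CL replicate 3 it was -0.40 (0.362).

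**Figure D4:**
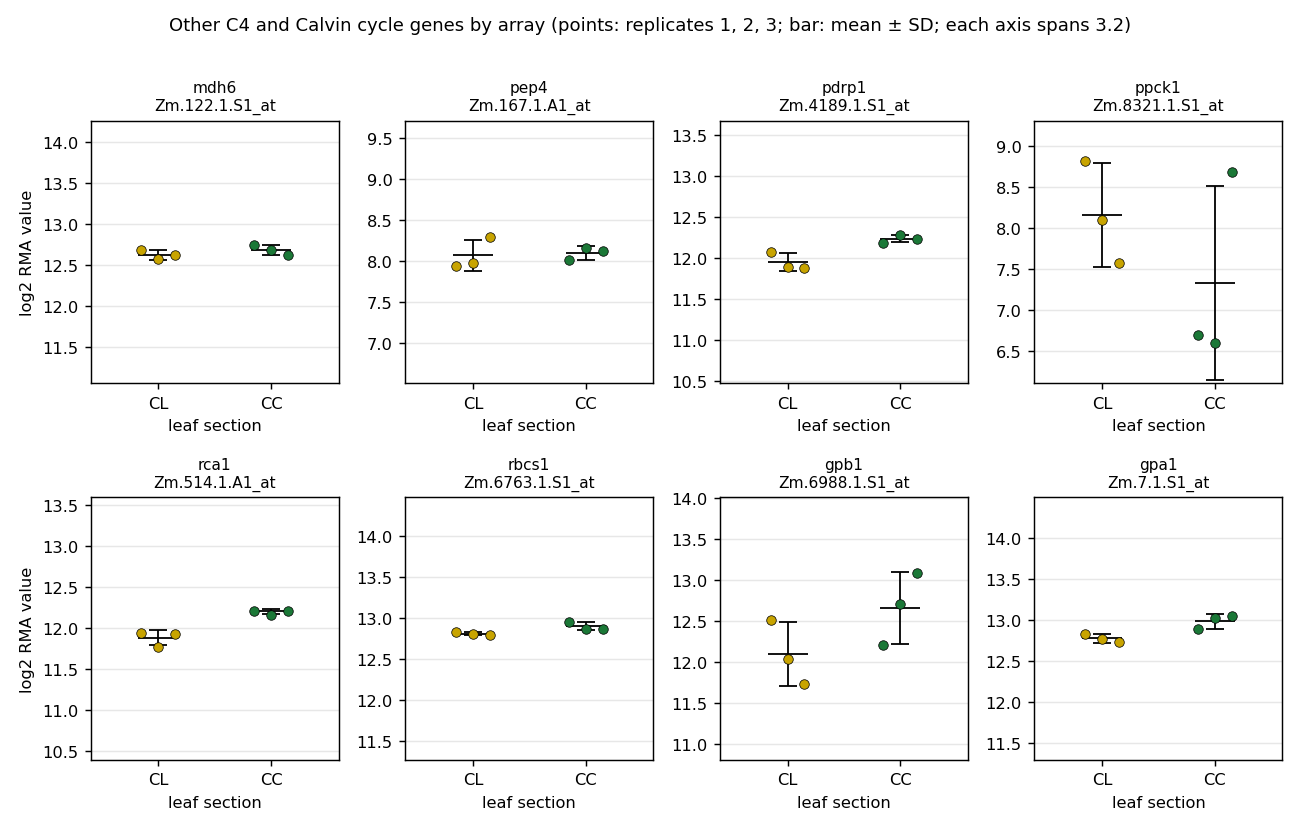
Log2 RMA values (vertical axes, each spanning 3.2 units) of 8 other C4 and Calvin cycle genes in the CL and CC sections, with a point for each of the 3 replicates and a bar for mean ± SD. The 3 CC points of ppck1 run from 6.60 to 8.68, while the rca1 and pdrp1 points of CL lie below those of CC.

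Of 10 markers of epidermis, vascular and dividing cells, 1 rose, 3 fell and 6 did not pass, where 15.9% and 15.2% of all probe sets rose and fell. Of 5 epidermis and wax genes, 0 rose and 2 fell (gl1 and gl15), and their mean log2 value was 5.64 to 5.85 in CL, against 6.06 to 6.53 in CC. The vascular marker sut1, a sucrose transporter, read 9.62 to 10.35 in CL, against 10.46 to 10.99 in CC, and fell (limma adjusted p = 0.0256). Of 4 genes of dividing cells, 1 rose (pcna2) and 0 fell, with mean log2 values of 5.81 to 5.94 in CL and 5.63 to 5.78 in CC. Beside the members, the mesophyll markers were mdh6, which did not pass, and pdlk1, which rose on its brightest probe set. The list named pdlk1 itself, although its symbol is that of a pyruvate dehydrogenase kinase and not of a C4 enzyme. The part of these markers in the rise of ppt1 was not tested.

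Likeness to each gene was described by Pearson's r over the 6 arrays, with 973 other genes of informative name represented by their brightest probe set. The 3 genes most like ppt1 were Sod4A (r = 0.995), a superoxide dismutase by its symbol, nfa104 (r = 0.992) and the protein disulfide isomerase gene pdi4 (r = 0.991). Their log2 changes were 0.36, 0.95 and 0.93. The shared sign follows from the choice, since r ran over both sections and ppt1 differed between them. The closest to pep1 was ciszog1 (r = 0.944), that to pdk1 was cks (r = 0.952) and that to me3 was tif5A (r = 0.946), while the C4 genes themselves ranged over only 0.11, 0.11 and 0.07 log2 units. Among the 4 genes themselves, r over the 6 arrays was 0.886 for pdk1 with ppt1, 0.676 for ppt1 with me3, 0.546 for pdk1 with me3, 0.396 for pep1 with ppt1, 0.054 for pep1 with me3 and -0.0142 for pep1 with pdk1. All these values share the same 6 arrays and their normalization.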

How the data were processed

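Total RNA of 250 ng a sample was biotin-labelled with a 3' kit for a maize expression array, per the labels' protocols, and light in the growth chamber was 228 µmol m-2 s-1 for 14 h a day. The deposited values are log2 expression values; per the submitters' processing notes the tools were RMA, Affymetrix Expression Console and limma, for which no version is given in the sources used here. RMA corrects background, equalises the distributions of probe values and then summarises each probe set. No scanner file was used, so background and saturation could not be tested per probe; precision is limited by having 3 arrays a section.

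Genes were named for 1452 probe sets through an older platform annotation, with synonyms by gene ID from a RefSeq table (Zm-B73-REFERENCE-NAM-5.0). There were 16102 probe sets with no gene named here and 1 with several. Limma 3.58.1 in R 4.3.3 was fitted to all 17555 probe sets of 6 arrays, without a block, with Benjamini-Hochberg adjustment over all and a threshold of 0.05. Pairs of genes were compared on their brightest probe sets. The fit was also run on simulated data, with values drawn independently for each probe set and array, and no result here rests on that run. Array pairs of a section differed with an SD of 0.251 to 0.387, and 0 columns were unused.

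Members, lists and tests were chosen with earlier results of these data known. Named were every probe set of the 4 genes, every match of the 3 pathway lists and the 3 genes most like each of the 4. Of those 12, the ones given were chosen after their values were seen. Alternatives were a replicate block, an intensity trend, robust variance, array weights, median centring, quantile normalization, leaving out the dimmest 25% or 50%, a threshold of 0.01, 1 probe set a gene, gene means over probe sets and each array left out in turn.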

Additional observations from a re-analysis of the deposited data

How the results depend on the processing

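The rise of ppt1 passed under every alternative run for it, and pep1, me3 and the bright probe sets of pdk1 passed under none. The labels do not say whether same-numbered arrays share a plant, and their deviations from the section means correlated at -0.535, -0.348 and -0.387, so the numbers were not used as pairs. With the replicate number as a block, the calls of pdk1 Zm.4471.4.A1_at (log2 change 0.29), pdlk1, pdlk2, pdrp1 and rca1 were lost, with adjusted p of 0.135, 0.111, 0.0631, 0.152 and 0.104. That probe set also missed the threshold with an intensity trend (0.29, adjusted p = 0.0688), at an adjusted p of 0.01, and with median centring or quantile normalization (0.24 each); it gave 0.26 to 0.34 with single arrays left out.

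All probe sets gave 2789 rises and 2668 falls. There were 1020 and 850 with the block, 4388 and 4940 with array weights, and 1126 and 867 at an adjusted p of 0.01. With 1 probe set a gene there were 218 and 247, out of 1108 named genes and not out of all probe sets. Falls were 1656 without the dimmest 50%. With single arrays left out, rises were 1308 to 2818 and falls 1082 to 2865. The C4 and Calvin lists gave 1 rise and 3 falls, 0 and 0 with the block or at 0.01, 2 and 5 with array weights, 1 fall after quantile normalization, 0 rises without pdlk1 and pdlk2 (chosen after seeing the data), and 0 to 1 and 1 to 3 with single arrays left out. The cause of these shifts was not tested, apart from the fewer samples, features or stricter threshold that the settings themselves impose.

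Changes near 0 that did not pass turned sign in some settings. With median centring these were pdk1 Zm.4471.3.A1_x_at (-0.01), me3 (-0.02) and 2 probe sets of eno1 (-0.04 and 0). After quantile normalization they were mdh6 (0.03), rbcs1 (0.01) and eno1 (0.09 and -0.01), and with array weights pep4 (0.10), me2 (0.02) and eno1 (0 and -0.01). The pep1 minus pdk1 change was -0.01 with means over all probe sets of each gene. With single arrays left out, pep4 ran from -0.14 to 0.04 and the eno1 probe sets from -0.09 to 0.08, -0.06 to 0.05 and -0.04 to 0.17.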
